A study of Mus musculus with 6 samples.

Results

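The broad Gli3 sites were the peaks of the deposited Gli3 ChIP-seq list that were 4000 bp or wider on chromosomes 1 to 19. They were chosen by their width alone, and there were 419 of them among 4028 sites on these chromosomes and 4114 in the whole list. The other 3609 sites on chromosomes 1 to 19 are called narrower sites, and 1604 of them, from 2000 bp to the threshold, were used as the group closest in width. Chromatin immunoprecipitation (ChIP) recovers DNA fragments held by a protein. Here it was done on wild-type (wt) mouse cerebral cortex at embryonic day 15 with a Gli3 antibody, in 3 ChIP libraries and 3 libraries of input DNA, and chromatin had been sheared to fragments of 100 to 300 bp. No strain, sex or treatment of the embryos is given in the sources used here. The authors joined the ChIP libraries in 1 list, which gives the position of each peak without a height, a summit or a value for each library. Errors below are therefore counting errors over sites, not differences between embryos, and the read depth is unknown.

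Gli3 is a zinc finger transcription factor at the end of the Hedgehog pathway. Without Hedgehog ligand it is cut to a short form that represses target genes, and this form prevails in the dorsal forebrain, where it restrains ventral gene programs. Gli proteins bind a GC-rich word whose best form is GACCACCCA, called the GLI core here and counted as an exact match on either strand. *Ptch1*, the gene of the Hedgehog receptor, is a classic target that carries such words. Wide peaks are better known from histone marks than from single transcription factors.

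Of the broad sites, 66 held at least 1 GLI core, 9 of them had 2 and 1 had 3. Cores of 5 loci are shown as a selection, made after their values were seen, of broad sites with a GLI word: those of *Ptch1*, and 4 of the sites with 2 or more cores. Each is read 5′ to 3′ on the strand of the core in mm10, with 10 bases to either side and the core in capitals.
Ptch1 first site, chr13:63566425-63566453, plus strand: aaagtagagaGACCACCCAggtaggcaac
Ptch1 second site, chr13:63573455-63573483, minus strand: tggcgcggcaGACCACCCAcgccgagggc
Ctnnb1 first core, chr9:120867768-120867796, minus strand: gattcataggGACCACCCAgggaacttga
Ctnnb1 second core, chr9:120868064-120868092, plus strand: ctgagagaagGACCACCCAcaggacaaga
Ctnnb1 last core, chr9:120870997-120871025, plus strand: ccacagggagGACCACCCAtcaagtggat
Neurod2 first core, chr11:98333050-98333078, minus strand: ccccaggcttGACCACCCAgccccctacc
Neurod2 second core, chr11:98336185-98336213, plus strand: ccaccaggaaGACCACCCAggaggctggg
Gm3764 first core, chr3:88227536-88227564, plus strand: aggagggagcGACCACCCAgctttagtcg
Gm3764 second core, chr3:88228702-88228730, minus strand: cacatccctgGACCACCCAactctactca
Bahcc1 first core, chr11:120262377-120262405, plus strand: gcctgcttggGACCACCCAcagggcaatg
Bahcc1 second core, chr11:120266106-120266134, minus strand: ggcagctctgGACCACCCAtccctggcac

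The *Ptch1* sites each had 1 core. The core of the second site lay within 2 kb of the upstream start of *Ptch1*, and that of the first near an inner start site of the gene. The *Ctnnb1* site, which had more cores than any other broad site, was 60.8 kb upstream of the start of *Ctnnb1* (beta-catenin, the effector of Wnt signaling), at the start sites of noncoding transcripts. The *Neurod2* site was intergenic and upstream of this neuronal bHLH gene. *Gm3764* is a noncoding gene that hosts *Mir9-1*.

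The closest cores within any broad site were 243 bp apart from start to start, in an intergenic site of 7326 bp whose nearest protein-coding gene was *4933407L21Rik*. The stretch from the first core to the end of the second, 252 bases on the plus strand of mm10, is shown for this arrangement. The capitals mark the cores, of which the first is read from the minus strand.
Core pair, chr1:85917279-85917530: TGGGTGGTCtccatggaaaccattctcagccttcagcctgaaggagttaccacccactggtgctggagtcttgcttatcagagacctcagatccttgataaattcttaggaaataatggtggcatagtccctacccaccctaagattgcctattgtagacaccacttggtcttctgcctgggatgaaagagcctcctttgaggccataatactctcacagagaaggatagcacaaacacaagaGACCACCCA

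The broad sites were 10.4% of the sites and 23.4% of their total length, 2161 kb of sequence against 7062 kb in narrower sites. Their widths ran from 4000 to 11710 bp with a median of 4771 bp, and the middle of the distribution was between 4317 bp (25th percentile) and 5570 bp (75th percentile). Narrower sites ran from 179 to 3998 bp with a median of 1866 bp. Of the broad sites, 247 were below 5000 bp, 98 were from 5000 bp to below 6000 bp and 74 were 6000 bp or wider. The distribution had no gap at the threshold. Just inside it were the sites of *Fgf11* and *Gse1*, each 4000 bp, and *Ttc39c*, 4004 bp. Just outside were those of *Neo1*, 3998 bp, *Olig1*, 3994 bp, and *Ppp2r3d*, 3993 bp. The *Gli1* site at its start, 3683 bp, was a narrower site, and no site nearest to *Olig2* was broad.

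**Figure D1:**
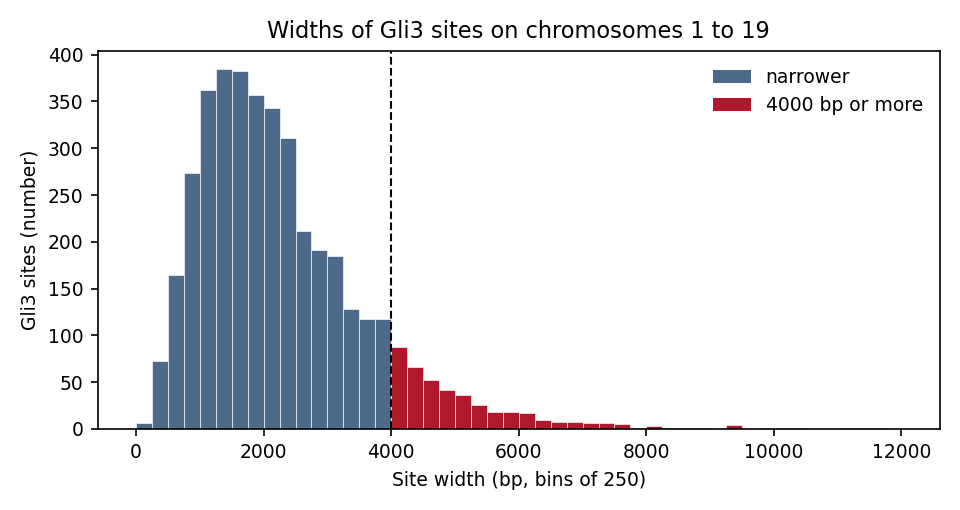
Number of Gli3 sites on chromosomes 1 to 19 (y axis) by site width in bins of 250 bp (x axis), with the 4000 bp threshold as a dashed line. The 419 broad sites form the right tail of a continuous distribution that ends at 11710 bp.

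The widest site, chr7:79502284-79513993, lay in an intron of *Mir9-3hg*, the noncoding host gene of *Mir9-3*, and covered the microRNA gene itself, while the nearest protein-coding start, that of *Polg*, was 41.8 kb away. Next in width were the sites at the start sites of *Tnrc18*, 11320 bp, *Mn1*, 11000 bp, and *Midn*, 10473 bp. *Tnrc18* encodes a chromatin protein with a BAH domain, *Mn1* a transcriptional coregulator and *Midn* a nuclear protein that takes proteins to the proteasome. A site of 10111 bp was inside the zinc finger gene *Zfp618*. The site of 9947 bp at *Gm3764* had *Rhbg* as its nearest protein-coding gene, 26.0 kb away. Sites of 9314 bp at *Hpca*, a neuronal calcium sensor, 9272 bp in *Bahcc1*, a paralog of *Tnrc18*, 9258 bp at *Gse1*, a partner of histone deacetylase complexes, and 9257 bp at *Cdk2ap1*, a subunit of the NuRD complex, followed.

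Of the remaining 10 sites among the 20 widest, 5 were promoter sites. These were a site of 8982 bp at the noncoding gene *Gm14488*, with *1700001O22Rik* as its nearest protein-coding gene, and sites of 8433 bp at *Plxnc1*, a semaphorin receptor gene, 8160 bp at *Hes5*, 8067 bp at *Bcl11a* and 7705 bp at *Bahcc1*. The other 5 were nearest to *Slc25a13*, 8748 bp, *Irf2bp2*, 8123 bp, *Pitpnm2*, 7784 bp, *Sh3rf3*, 7667 bp, and *Pmepa1*, 7648 bp. *Irf2bp2* encodes a corepressor and *Pmepa1* an inhibitor of TGF-beta signaling. *Slc25a13* encodes a mitochondrial carrier, and its intronic site held 2 GLI cores.

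To ask where broad sites lie, each site was classed by its midpoint, and midpoints up to 2 kb before or after a start site (TSS) in the annotation were called promoter sites. Promoters held 215 broad sites, 51.3% (95% Wilson interval 46.5 to 56.1%), and 1623 of 3609 narrower sites (43.4 to 46.6%). The odds ratio was 1.29 (1.05 to 1.59; two-sided Fisher's exact test, p = 0.0148, adjusted p = 0.0445 over the classes). Intergenic sites were 84 of the 419 broad (16.5 to 24.1%) and 926 of the 3609 narrower (24.3 to 27.1%) (odds ratio 0.727, interval 0.559 to 0.937, adjusted p = 0.0445 by Fisher's exact test). The intergenic share was not tested against narrower sites of 2000 bp or more. Introns held 111 broad sites, 26.5%, against 27.5% of narrower sites, and this difference did not pass the test (odds ratio 0.948, interval 0.747 to 1.20, adjusted p = 1 by Fisher's exact test). Exons outside promoters had 6 broad sites, 3′ UTRs 3 and 5′ UTRs 0.

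The promoter share was higher in each wider class below the threshold, and nearly the same in the classes above it, with no test between classes. It was 35.9% in sites under 1000 bp, 48.5% in those from 2000 to below 3000 bp and 55.9% in those from 3000 to below 4000 bp, and it was 51.4%, 51.0% and 51.4% in the 3 classes of broad sites from the narrowest to the widest. Against narrower sites of 2000 bp or more, of which 51.1% were promoter sites, the odds ratio of broad sites was 1.01 (0.810 to 1.26; Fisher's exact test, p = 0.956). With promoters of 1 kb to either side it was 0.987 (0.797 to 1.22; Fisher's exact test, p = 0.916). Of the broad promoter sites, 180 were at the TSS of a protein-coding transcript and 35 at that of noncoding transcripts only. The midpoints of broad sites were a median of 4733 bp from the nearest protein-coding TSS, against 12651 bp for narrower sites and 5796 bp for those of 2000 bp or more. Of the broad sites, 74, or 17.7%, were more than 50 kb from one, against 27.5% of narrower sites and 22.8% of those of 2000 bp or more.

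A protein-coding TSS was inside 188 broad sites, 44.9%, and inside 1195 narrower sites, 33.1%. Of narrower sites of 2000 bp or more, 40.8% had one inside. Wider sites cover more sequence, so these shares are a description. Broad sites that covered their nearest TSS reached a median of 2160 bp upstream and 2778 bp downstream of it, and 119 of them, 63.3%, reached farther downstream. In narrower sites the reach was 902 bp upstream and 1077 bp downstream, with 57.3% reaching farther downstream. In those of 2000 bp or more it was 1199 bp upstream and 1517 bp downstream, and 61.5% reached farther downstream, near the share of broad sites.

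**Figure D2:**
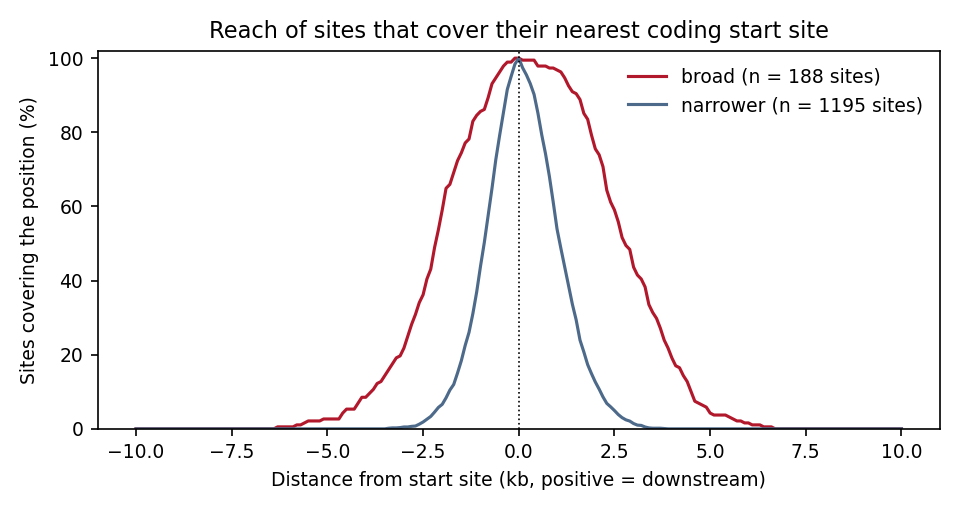
Percent of sites that cover each position (y axis) by distance from the protein-coding start site in kb, positive downstream (x axis), for 188 broad (red) and 1195 narrower (blue) sites that contain their nearest start site. Both curves extend farther downstream than upstream, with medians of 2778 and 2160 bp in broad sites.

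Individual promoters differed in the side to which the site extended. At *Bcl11a*, a transcription factor gene of cortical projection neurons, the site reached 3027 bp upstream and 5039 bp downstream of the TSS, and at *Tnrc18* it reached 6332 bp upstream and 4987 bp downstream. At *Mycn*, a proto-oncogene of progenitor growth, 6344 bp of the site were downstream of the TSS and 393 bp upstream. At *Nr2f1*, a regulator of cortical areas, 5693 bp were upstream, over the divergent noncoding gene *A830082K12Rik*, and 449 bp downstream. The *Fzd9* site likewise had 3991 bp upstream and 57 bp downstream.

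The GLI core was searched next, first in a central window of 1 kb, the same length for every site. It was found in the centres of 16 broad sites, 3.82%, and of 303 narrower sites, 8.40% (odds ratio 0.433, interval 0.242 to 0.725; two-sided Fisher's exact test, p = 0.000535). This share was lower among promoter sites, 2.33% against 5.73% (Fisher's exact test, p = 0.0351), and among nonpromoter sites, 5.39% against 10.6% (Fisher's exact test, p = 0.0196). It was also lower than in narrower sites of 2000 bp or more, which had the core in 6.86% of centres (odds ratio 0.539, interval 0.294 to 0.929; Fisher's exact test, p = 0.0227). With a width threshold of 5000 bp the odds ratio was 0.632 (0.281 to 1.25) and did not pass Fisher's exact test, p = 0.246. Allowing a mismatch, 33.4% of broad and 46.4% of narrower centres held a match (Fisher's exact test, p = 4.39e-07). The list gives no summit, so the centre is the midpoint of the interval. A window of 1 kb is a smaller part of a broad site, with a median width of 4771 bp, than of a narrower one, 1866 bp. It also reaches beyond the ends of sites under 1000 bp. Without these the odds ratio was 0.461 (0.257 to 0.775; Fisher's exact test, p = 0.00195). Site width therefore still enters this comparison.

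Over whole sites the GLI core occurred 77 times in broad sites, 0.0356 per kb, and 505 times in narrower sites, 0.0715 per kb. The density ratio was 0.498 (0.387 to 0.634; two-sided exact binomial test, p = 9.97e-10). The length in it is the width by which broad sites were chosen. A wider site with the same number of cores has a lower density, and the test does not account for this. Of the cores of narrower sites, 67 were in only 3 sites with 51, 11 and 5 cores in close succession, while no broad site had more than 3. Without these 3 sites the narrower density was 0.0621 per kb and the ratio 0.574 (0.445 to 0.733; exact binomial test, p = 2.57e-06). It was then 0.675 among promoter sites (exact binomial test, p = 0.0442), 0.539 among nonpromoter sites (exact binomial test, p = 4.59e-05) and 0.702 against narrower sites of 2000 bp or more (exact binomial test, p = 0.00695). At a width threshold of 5000 bp it was 0.747 with these 3 sites (exact binomial test, p = 0.0447) and 0.854 without them (0.629 to 1.14, p = 0.303), which did not pass. They were left out as an alternative chosen after seeing the data. With a mismatch allowed and all sites kept, the ratio was 0.832 (0.772 to 0.896). Chromosomes 1 to 19 as a whole had 0.00674 cores per kb, so that both kinds of site lay above the genome. A core anywhere in the site was found in 15.8% of broad sites (12.6 to 19.5%) and 11.8% of narrower sites (10.8 to 12.9%), with no test. Wider sites hold more sequence in which a word can occur, so these shares are a description.

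The density was not lowest in the widest sites. It was 0.151 per kb in sites below 1000 bp, 0.0504 per kb from 3000 to below 4000 bp and 0.0229 per kb from 4000 to below 5000 bp (95% Poisson interval 0.0148 to 0.0339), and was 0.0396 per kb from 5000 to below 6000 bp and 0.0574 per kb (0.0390 to 0.0814) at 6000 bp and wider. From the narrowest to the widest class of broad sites, 10.1%, 18.4% and 31.1% of sites held a core. Wider sites hold more sequence, so these shares are a description too. The intervals of the first and the last class of broad sites did not overlap, and no test between them was made.

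**Figure D3:**
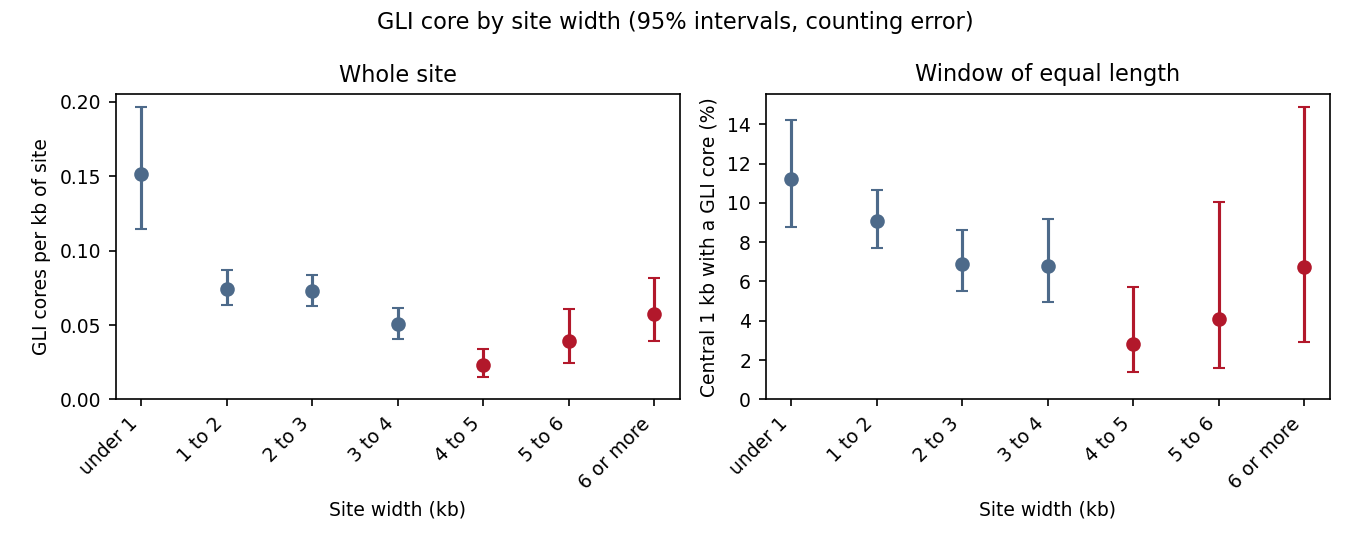
GLI cores per kb of site (left) and percent of sites with a core in the central 1 kb (right), on the y axes, by site width in kb (x axes). Points are the values of each width class (red, broad; blue, narrower) with 95% intervals for counting error, Poisson on the left and Wilson on the right. On the left, the points of 1 to 2, 2 to 3 and 3 to 4 kb include the sites with 11, 51 and 5 cores, in that order. Without these sites the densities were 0.0696, 0.0529 and 0.0478 per kb. The lowest points are those of sites of 4 to 5 kb, at 0.0229 per kb and 2.83%.

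The place of the core within the site was compared next. When each site was divided in 3 equal parts, the middle part held 28 of the 77 cores of broad sites, 36.4%, beside 27 in the first and 22 in the last part. In narrower sites it held 254 of 505 cores, 50.3% (odds ratio 0.565, interval 0.331 to 0.951; two-sided Fisher's exact test, p = 0.0272). Equal spread along the site would place 33.3% in each part. Against narrower sites of 2000 bp or more, where the middle part held 47.5%, the difference did not pass Fisher's exact test, p = 0.0933. Fisher's exact test counts each core as independent, which the 67 cores in 3 narrower sites are not. Without these sites the middle part held 211 of 438 cores, 48.2%, and the difference from broad sites did not pass (odds ratio 0.615, interval 0.358 to 1.04; Fisher's exact test, p = 0.0632). This division was chosen after seeing the data.

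**Figure D4:**
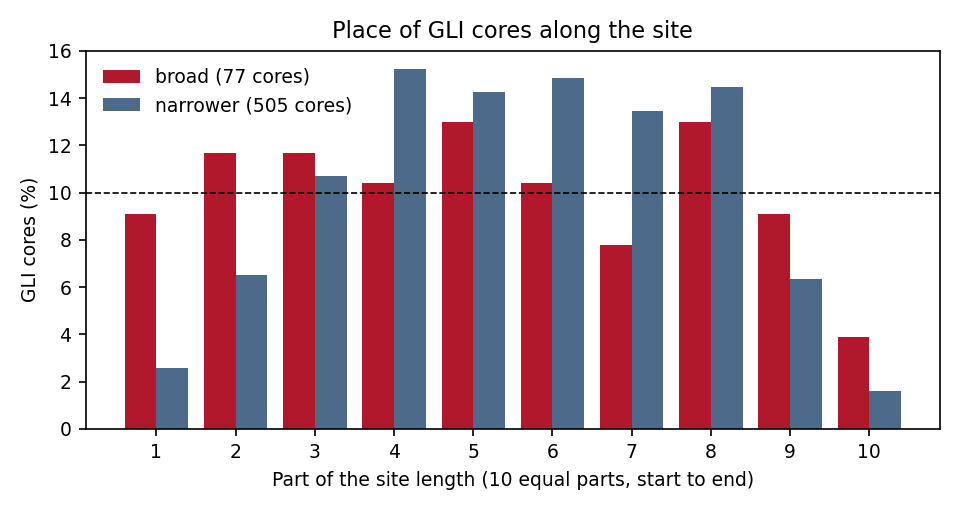
Percent of GLI cores (y axis) in each of 10 equal parts of the site from its start to its end on the chromosome (x axis), for 77 cores in broad (red) and 505 in narrower sites (blue); the dashed line marks an equal spread. The middle of 3 equal parts held 36.4% of the cores of broad sites and 50.3% of those of narrower sites, 67 of which lay in only 3 sites.

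To see whether other motifs differed, 16 words were searched on both strands, with palindromes counted once. They were the GLI core and its first 8 bases GACCACCC, which every core contains, GGGCGGGG (SP), GGGCGTGG (KLF), CAGCTG (bHLH E-box), CACGTG (Myc/USF E-box), TAATTA (homeodomain), AACAATG (SOX), TTGGCA (NFI), CAGGGGGCG (CTCF), GTTGCCATG (RFX), GCGCATGCG (NRF1), CCGGAAG (ETS), AAGATGGCG (YY1), TGACGTCA (CREB) and ATGCAAAT (POU octamer). In the central 1 kb only the 2 overlapping GLI words differed after adjustment, the core with adjusted p = 0.00676 and the 8-base word, in 35 of 419 broad against 506 of 3609 narrower centres, with adjusted p = 0.00676 (Fisher's exact test, Benjamini-Hochberg). The POU octamer, a word of neural POU factors, was in 3.82% against 6.21% of centres (Fisher's exact test, p = 0.0497, adjusted p = 0.265). The bHLH E-box, which proneural factors bind, was in 46.8% against 47.1% of centres (odds ratio 0.988, interval 0.802 to 1.22).

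Over whole sites, 12 of the 16 words differed in density after adjustment. The exact binomial test counts matches as independent, and matches that occur together make its p-values too small. With matches within 100 bp of each other counted once, 9 of the 16 differed, and SP, NRF1 and bHLH E-box words no longer did (adjusted p = 0.0842 each by the exact binomial test). Myc/USF E-boxes were denser in broad sites, 0.232 against 0.179 per kb (ratio 1.30, interval 1.17 to 1.44, adjusted p = 6.79e-06 by the exact binomial test; ratio 1.15 and adjusted p = 0.0283 with close matches counted once), and bHLH E-boxes were 0.719 against 0.664 per kb (ratio 1.08, 1.02 to 1.15, adjusted p = 0.0116 by the exact binomial test). The other 10 were sparser in broad sites. Of these the ratio was 0.562 for NRF1 (0.340 to 0.888), a factor of housekeeping promoters, 0.728 for ETS (0.617 to 0.855) and 0.846 for SP (0.767 to 0.931). CTCF, RFX, YY1 and CREB words did not pass the test. The densities of the words other than the GLI words were tested after seeing the data. Against narrower sites of 2000 bp or more, the ratios of the 10 sparser words were all nearer to 1. They were 0.622 for NRF1, 0.815 for ETS, 0.890 for SP and 0.972 for NFI, with no test. The Myc/USF and bHLH E-boxes had ratios of 1.30 and 1.11 there. Length in these densities is again the width by which broad sites were chosen.

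**Figure D5:**
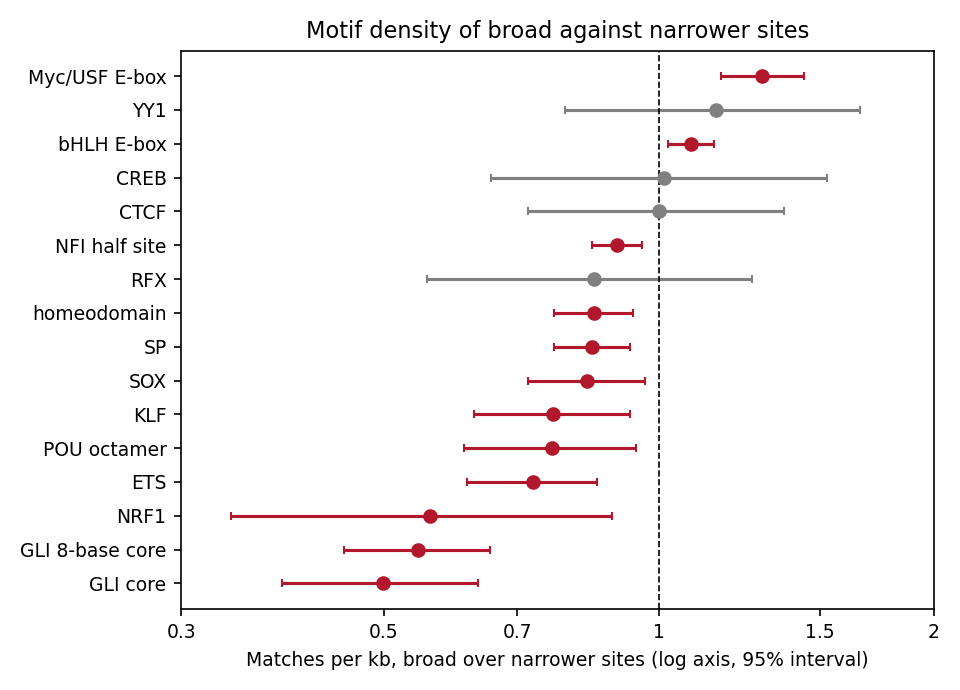
Density of 16 motif words in broad sites divided by that in narrower sites (x axis, log scale), with 95% intervals. Red points pass an adjusted p of 0.05 in the exact binomial test and grey points do not; the GLI words lie lowest at 0.498 and 0.545 and the Myc/USF E-box highest at 1.30.

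Base composition differed little over whole sites. The median GC content was 52.0% in broad and 51.3% in narrower sites, with a smaller range in broad sites, from 39.7 to 63.3% against 33.9 to 74.4%. CpG-rich centres, with GC of 50% or more and an observed over expected CpG ratio of 0.6 or more, were found in 91 broad sites, 21.7%, and 25.9% of narrower sites (odds ratio 0.795, interval 0.616 to 1.02; Fisher's exact test, p = 0.0663). Among promoter sites the share was 40.5% against 54.1% (odds ratio 0.577, interval 0.427 to 0.777; Fisher's exact test, p = 0.000200). The midpoint was within 1 kb of a TSS in 163 of 215 broad and 1415 of 1623 narrower promoter sites. The window was thus less often close to the TSS in broad ones. With a central window of 2000 bp the odds ratio over all sites was 0.991 (0.765 to 1.27). Over whole sites the median observed over expected CpG ratio was 0.306 in broad and 0.304 in narrower sites. CpG-rich sequence is the mark of CpG islands, which cover most housekeeping promoters. Sites of which more than 50% of the 32-base words occur elsewhere in the genome were 9 of the broad, 2.15%, and 3.35% of the narrower.

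The protein-coding genes nearest to a broad site were 383 of 20722 on these chromosomes, 1.85%, while 2786, 13.4%, were nearest to a narrower site. Of the 383 genes, 156, or 40.7%, were nearest to a narrower site too. A TSS of 206 genes, 0.994%, was inside a broad site. Nearness is a position and does not show that a gene is regulated by the site.

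Most of these genes, 359, had 1 broad site and 24 had 2 or more. *Gse1* had 9 broad and 11 narrower sites. Its broad sites all lay inside the gene, over 258 kb of its 353 kb, and none of their 49.2 kb contained a GLI core. They were 9258, 7344, 5569, 5070, 4922, 4716, 4309, 4048 and 4000 bp wide, and those of 9258 and 4048 bp were at start sites of the gene. *Foxo6*, a forkhead gene of the developing cortex, had 4 broad and 6 narrower sites. The broad ones, of 7528, 5647, 4238 and 4184 bp, spanned 64.2 kb at and downstream of the gene, again with 0 GLI cores. *Bahcc1* had 3 broad sites and 0 narrower sites within 47.0 kb, of 9272, 7705 and 7524 bp, and the widest of them had 2 cores. *Rai1*, a chromatin regulator of the nervous system, had 3 broad sites of 5886, 4204 and 4142 bp and 0 narrower ones. *Zmiz1*, a transcriptional coactivator, had 3 broad and 2 narrower sites, and only 1 of its broad sites had its midpoint inside the gene. Genes with 2 broad sites included *Acsf3*, *Auts2*, *Castor2*, *Cdk6*, *Dpysl5*, *Fgfr3*, *Gm21119*, *Hivep2*, *Mn1*, *Plpp3*, *Pmepa1*, *Ptch1*, *Rbfox3*, *Rgma*, *Rhbg*, *Shq1*, *Ston2* and *Wdr95*. Another Gli3 site of any width lay within 50 kb, between midpoints, of 183 broad sites, 43.7%, and of 33.5% of narrower sites.

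Genes of 15 lists drawn from cortical development and signaling were then located. Of 309 distinct genes, 42 were nearest to a broad site, 13.6%, against 1.85% of all protein-coding genes. This was not particular to broad sites. In all lists but the Fgf, ribosomal protein and vascular ones, the share nearest to a narrower site was also above the 13.4% of all protein-coding genes. The counts are descriptions, as the lists were selected with results of these data known, and a gene can be in several lists.

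Of 20 Hedgehog pathway genes, 5 were nearest to a broad site and 12 to a narrower one. The receptor gene *Ptch1* had broad sites of 7255 and 5475 bp over 2 of its start sites, and the gene of the ligand-binding antagonist *Hhip* had one of 4107 bp over its TSS. *Gli2*, the paralog of Gli3, had an intergenic broad site of 5210 bp 150.3 kb upstream of its TSS. The growth genes *Ccnd1*, with a promoter site of 7030 bp, and *Mycn*, with a site of 6738 bp over its TSS whose midpoint was in an intron, are Hedgehog targets in other neural progenitors and were counted here too. *Smo*, *Sufu*, *Gli1*, *Cdon*, *Boc*, *Gas1*, *Kif7* and *Gsk3b* were among those nearest to narrower sites only.

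Of 20 Notch, Hes and Id genes, 6 were nearest to a broad site and 12 to a narrower one, against 1.85% and 13.4% of all protein-coding genes. The TSS of 5 was inside a broad site, against 0.994% of all genes. Notch signaling keeps radial glia in a progenitor state by inducing Hes repressors. The receptor gene *Notch1* had a broad site of 4804 bp, the ligand gene *Jag1* one of 4418 bp, and *Hes5*, *Hes6* and *Id2* ones of 8160, 4015 and 6114 bp. The broad site nearest to *Hes1*, 4608 bp, was 55.3 kb upstream of its TSS, at the start of the noncoding gene *4632428C04Rik*. The *Hes5* site also covered the TSS of *Pank4* and held 0 GLI cores.

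The *Hes5* promoter is shown as the centre of this site, with the 250 bases before its TSS from RefSeq (GRCm38.p6, plus strand). The capitals mark the word GTGGGAA on either strand, part of the motif of RBPJ, the DNA-binding partner of Notch, which was looked up after the sequence was seen.
Hes5, chr4:154960673-154960922: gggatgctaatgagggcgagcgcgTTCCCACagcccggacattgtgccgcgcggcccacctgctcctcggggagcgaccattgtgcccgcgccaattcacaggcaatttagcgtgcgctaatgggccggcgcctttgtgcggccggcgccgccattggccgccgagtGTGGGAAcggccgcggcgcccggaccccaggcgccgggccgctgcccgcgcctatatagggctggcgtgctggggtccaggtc
The word occurred 2 times there. Windows of this kind held it in 5.42% of 32851 RefSeq promoters and in 11 of the 236 promoters that lay wholly inside broad sites, 4.66%.

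Of 24 cortical progenitor factors found in the annotation, 5 were nearest to a broad site and 17 to a narrower one. The *Sox2* broad site, 5899 bp, was 12.4 kb downstream of its TSS at a start of the overlapping transcript *Sox2ot*, and *Nr2f1*, *Hes1* and *Hes5*, described above, were also among them. *Pax6*, *Emx1*, *Lhx2*, *Neurog2* and *Eomes* were nearest to narrower sites only. Of 24 projection neuron factors, 15 were nearest to a narrower site and 5 to a broad one. The broad sites were those of *Bcl11a*, 8067 bp, *Pou3f2*, 6321 bp, *Neurod2*, 5520 bp, *Fezf2*, 4794 bp, and *Pou3f3*, 4518 bp. Those of *Bcl11a*, *Pou3f2* and *Fezf2* were over the TSS, that of *Neurod2* was 5.25 kb upstream of it, and that of *Pou3f3* was 9.43 kb upstream in an intron of the noncoding gene *Pantr1*. Of 19 ventral and interneuron factors, 0 were nearest to a broad site, a count that does not stand apart from the 1.85% of all genes, and 7, among them *Nkx2-1* and *Gsx2*, were nearest to a narrower one.

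Of 20 gliogenic genes, 5 were nearest to a broad site and 12 to a narrower one. *Sox8*, a factor of oligodendrocyte precursors, had a site of 6567 bp with its midpoint in the 3′ UTR and 1 GLI core. *Zbtb20*, *Fgfr3* and *Nfix* had sites of 5644, 5201 and 4935 bp, and *Fgfr3* had a second one of 4621 bp. The site of the astrocyte enzyme gene *Aldh1l1* was 4067 bp and intronic.

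Among signaling lists, 4 of 25 Wnt genes were nearest to a broad site and 10 to a narrower one. The broad sites were those of the ligand gene *Wnt7b*, 5401 bp, the receptor gene *Fzd9*, 4049 bp, and the effector genes *Ctnnb1*, 7248 bp, and *Lef1*, 4797 bp. Only that of *Fzd9* covered a TSS of its gene. Of 25 BMP and TGF-beta genes, 4 were nearest to a broad site as well, and 8 to a narrower one. The ligand genes were *Bmp7*, with an intergenic site of 6367 bp 181.7 kb downstream of its TSS, and *Tgfb1*, with a promoter site of 5431 bp and 1 GLI core. The inhibitors were *Smad6*, 4479 bp, and *Skil*, 4200 bp. Of 19 Fgf genes, the receptors *Fgfr1*, 4054 bp, and *Fgfr3* and the feedback phosphatase *Dusp6*, 4327 bp, were nearest to a broad site, and 2 were nearest to a narrower one.

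Of 20 cell cycle genes, 4 were nearest to a broad site and 11 to a narrower one, against 1.85% and 13.4% of all protein-coding genes. A TSS lay inside a broad site in 0.994% of all genes and in each of these 4. They were the G1 cyclin genes *Ccnd1* and *Ccnd2*, the latter with 6017 bp and 1 GLI core, the kinase gene *Cdk6*, with sites of 5058 and 4919 bp, and *Mycn*. Of 19 corepressor and chromatin genes, 5 were nearest to a broad site, none of them with a TSS inside, and 10 to a narrower one. The Groucho corepressor genes *Tle2* and *Tle3* had intergenic sites of 4684 and 4378 bp, and the sites of *Dnmt3a*, 4304 bp, and *Chd7*, 4173 bp, were intronic.

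For the last 4 lists, of 19 to 24 genes each, the counts of 0 or 1 cannot be told from the 1.85% of all protein-coding genes. Of 24 axon guidance genes 0 were nearest to a broad site and 13, or 54.2%, were nearest to a narrower one, against 13.4% of all protein-coding genes. Of 19 glutamate and GABA receptor genes the count was 1, *Gabbr2* with an intronic site of 4388 bp, against 10 near narrower sites. Of 20 ribosomal protein genes 0 were nearest to a site of either kind. Of 20 vascular, blood and microglial markers, genes of the other cells that a dissected cortex holds, 0 were nearest to a broad site and 1, *Cdh5*, to a narrower one.

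MicroRNA genes were examined because the widest site covered one, and thus after its position was seen. Broad sites contained 11 microRNA genes in 10 sites, 5.09 per Mb, against 31 genes, or 4.39 per Mb, in narrower sites. For 10 of the 11, RefSeq (GRCm38.p6) gives mature sequences. Those of *Mir9-3* and *Mir219a-1* are shown, as both are microRNAs of neural development, with the seed (bases 2 to 8) in capitals.
miR-9-5p: uCUUUGGUuaucuagcuguauga
miR-9-3p: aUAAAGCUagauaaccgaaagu
miR-219a-5p: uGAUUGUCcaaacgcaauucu
The first is among the most abundant microRNAs of cortical progenitors and is made from 3 genes, and miR-219a is known for its role in oligodendrocyte differentiation. *Mir9-3* lay within the widest site, and 4 other Gli3 sites of 935 to 3066 bp were within 50 kb of it. *Mir9-1* was in no site, but broad sites of 5053 and 9947 bp flanked it at 5369 and 8019 bp, and sites of 1887, 2226 and 902 bp were also within 50 kb. *Mir9-2* had no site within 50 kb, and the nearest, 1043 bp wide, was 170444 bp from its mature sequence. *Mir219a-1*, with the opposite-strand gene *Mir219c*, was inside a broad site of 5025 bp on chromosome 17.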

How the data were processed

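ChIP-seq of Gli3 was done in wild-type cortex at embryonic day 15, with 3 ChIP and 3 input libraries. Per the labels, the authors used Bowtie2, SAMtools and MACS2 with mm10, and per the file header, paired reads of 85 bases, a repeat filter and an irreproducible discovery rate analysis. Tool versions and thresholds are not given in the sources used here. The deposited unit is the position of each peak, with no count or score, so that the values depend on the peak caller's joining of neighbouring signal, which sets width.

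Starts were made 1-based. Genes came from GENCODE M21 and sequence from GRCm38. Nearest genes used the TSSs of protein-coding genes. Broad sites (4000 bp or more) were compared with narrower ones by two-sided Fisher's exact tests on shares and exact binomial tests on densities, with Benjamini-Hochberg adjustment, using python 3.11.15, numpy 2.4.6 and scipy 1.17.1, tested on simulated data. Members, motifs and gene lists were chosen with earlier results of these data known. Named genes were those nearest to the 20 widest sites, to 2 or more broad sites, to sites with 2 or more GLI cores or beside the threshold, list genes nearest to a broad site, and *Gli1*, *Ptch1*, *Olig1* and *Olig2*. Of the genes nearest to sites with 2 or more cores, *Prkar1b*, *Laptm5*, *Dynll1* and *Cxxc5* are not described further. Other widths, windows, words and promoter definitions were tried as alternatives. Some items that the rule for named genes covers are not reported here.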

Additional observations from a re-analysis of the deposited data

How the results depend on the processing

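No paired analysis was possible because the ChIP libraries are joined in 1 list and carry no replicate numbers, and for the same reason no library could be left out. The density ratio of the GLI core stayed below 1 and past the threshold under 8 other settings of width, sites and word, but it moved to 0.747 with a width threshold of 5000 bp and to 0.832 with 1 mismatch. With settings chosen after seeing the data, it was 0.574 without the 3 narrower sites of 5 or more cores and 0.575 with matches within 100 bp counted once, and without those sites at 5000 bp it was 0.854 and no longer passed. The odds ratio of the core in the central window passed under 10 of 11, the exception being a width threshold of 5000 bp with 0.632. The odds ratio of the promoter share lost significance with that threshold (1.26), against narrower sites of 2000 bp or more (1.01) and with upstream promoters only (1.21), and turned to 0.987 with promoters of 1 kb to either side. That of CpG-rich centres passed the threshold against narrower sites of 2000 bp or more (0.729) and among promoter sites (0.577), but was 0.991 (p = 1 by Fisher's exact test) with a central window of 2000 bp and did not pass among nonpromoter sites (0.689). The motifs that differed between centres, 2 in the report, were 0 with the 5000 bp threshold, against narrower sites of 2000 bp or more, and among promoter or nonpromoter sites alone by Fisher's exact test, where 2, 1, 5 and 5 had an unadjusted p below 0.05. The number of broad sites was 653 at 3500 bp and 172 at 5000 bp, and that of nearest genes 586 and 161, or 206 when only genes with a TSS inside were counted. Subsets hold fewer sites, and the cause of the other changes was not tested. Sites are not independent samples, and no alternative gives an error between embryos.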

Other observations

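The share of sites that were broad, 10.4% over chromosomes 1 to 19, is given by chromosome as a description, with no test. It was highest on chromosomes 11, with 47 of 303 sites or 15.5%, and 5, with 49 of 319 or 15.4%, and lowest on chromosome 16, with 8 of 156 or 5.13%. Per length of chromosome the range was from 0.0801 broad sites per Mb on chromosome 14 to 0.385 per Mb on chromosome 11. Outside chromosomes 1 to 19, which the rule did not cover, 3 sites of 4000 bp or more were listed, all of them on chromosome X. The base before the GLI core was C in 3 of 77 cores of broad sites, 3.90%, and in 31 of 505 cores of narrower sites, 6.14%. The base after it was G most often in both, at 40.3% and 40.2%.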
